A study of Mytilus galloprovincialis with 16 samples.

Results

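The transcripts described here are encoded by the mitochondrial genome of the mussel Mytilus galloprovincialis, and were measured by 18 of the 1920 probes of a cDNA microarray. The members were NADH dehydrogenase subunit 5 (ND5, EMBL identifier AJ623584, clone Myt01-005D12), cytochrome b (AJ624584, clone Myt01-010A03), cytochrome oxidase subunit I (COI, AJ623880, clone Myt01-006G10) and the 15 listed clones that share AY484747, an identifier described as mitochondrial genome. A second cytochrome b probe (AJ624838) was not among the chosen identifiers and is given apart. Cytochrome b without an identifier means AJ624584 below. They were taken from the list of genes that the study itself had counted as changed in female mantle, so the stage changes that put them on that list are given below as a description, without a test. Each row of the list was tied to the clone whose stage 2, 3 and 4 changes against stage 1, recomputed from the ratios that the authors had processed, matched the row to within 0.005. The largest difference of a member from its own clone was 0.00244 and the smallest difference from any other clone was 0.06. The sources used here do not say which gene each of the 15 clones represents. Whether each of them stands for a respiratory chain subunit is therefore not known, and several of them may measure the same transcript.

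Animal mitochondrial genomes code for core subunits of the respiratory chain, which passes electrons to oxygen and pumps protons across the inner membrane, and for subunits of the ATP synthase that uses the proton gradient. ND5 is a proton-pumping subunit of complex I, cytochrome b is the electron-carrying core of complex III, and COI holds the catalytic centre of complex IV. Most of the other subunits of these complexes are encoded in the nucleus and imported. Oocytes of animals are known to accumulate mitochondria, which in most species pass to the offspring through the egg, and mussels add a paternal mitochondrial lineage that is kept mainly in male gonads.

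Mantle RNA of single wild females from the Bizerta Lagoon, untreated, was compared between 4 stages of gonadal development, each represented by 1 sampling month. Early gonads (stage 1) were collected in November, developing ones (stage 2) in January, ripe ones (stage 3) in February and spawning ones (stage 4) in March. In this bivalve the mantle holds the gonad, so that each sample was a mixture of germ cells and somatic tissue, and stage cannot be told apart from month. The 16 two-color arrays formed a loop in which stages 2 and 1, 3 and 2, 4 and 3, and 4 and 1 were hybridized together, on 4 arrays per pair, 2 of them with swapped dyes. All ratios are given as log2 of the later over the earlier stage, so that a value of 1 is a doubling of the signal. Labels do not tie animals to arrays, and errors therefore measure the spread between arrays. For replicate 4 of stage 3 against stage 2, one label field gives stage 4, whereas its title and month give stage 3, as used here.

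The only member sequences in the sources used here were the oligonucleotides of the study's quantitative PCR assay for ND5. They are printed because they show which stretch of a mitochondrial message was targeted in these RNA extracts, with the hydrolysis probe in capitals. Their lengths are 24, 28 and 24 bases and their GC contents 45.8%, 50% and 37.5%.
ND5 sense primer: cttattgcacctattcttaccggc
ND5 hydrolysis probe: ACCCTTGTCACAGTCTTCTTAACCCACG
ND5 antisense primer: ttcgtctgtaaactgtccaacaaa

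The members gave bright spots that were repeatable within an array. Their mean log2 intensity ranged between 7.23 and 12.29, which placed them between the 58th and the 99.8th percentile of all probes. Taking the 95th percentile of the empty spots as the limit of detection, 15 of 18 members were detected in all 32 channels and the others in at least 29. Duplicate spots of a member differed by a median of 0.101 on the log2 scale, against 0.155 over all probes, and no member spot was saturated. Between the arrays of a comparison, the members varied more than probes in general. Their median SD was 0.29 at stage 2 against 1 and 0.227 at stage 3 against 2, where all probes had 0.197 and 0.211. At stage 4 against 3 it was 0.301 and at stage 4 against 1 0.399, against 0.173 and 0.327. Over the channels, 44.5% to 92.4% of all probe spots were above the empty spots, and the share was lowest for stage 1 on replicate 1 of the arrays that set it against stage 4. Both egg envelope probes fixed as markers of the female gonad (AJ625872 and AJ625914) were above the empty spots in all 32 channels.

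The ripe stage stood out on the arrays that compared it directly with stage 2. All 72 member values, 18 probes on 4 arrays, were above 0, whereas 24.9% of all probes were above 0 on all 4 arrays. The median of the member means was 2.27, a 4.81-fold higher signal at stage 3 than at stage 2, with single probes between 1.21 and 3.07, and the median over all probes was 0.03. All 72 values were also above 0 after median centring, in the authors' ratios, without background correction and after plain background subtraction, and 68 of 72 were after print-tip loess. The median was 2.17 over the 2 arrays with stage 3 in Cy5 and 2.28 over the 2 with stage 3 in Cy3. Bulk mantle cannot show whether a transcript was more abundant per cell or whether cells rich in it were more numerous. On the same arrays the egg envelope probes averaged 1.67 ± 0.41 and 1.09 ± 0.37 (SD, n = 4), and the part of such cells in the mitochondrial values was not tested. Relative to stage 1, however, the egg envelope probes were below 0 at stage 3 in the fit over all arrays described below. AJ625872 was at -0.80 (SE 0.37) and AJ625914 at -0.32 (SE 0.31), against a median of 1.31 for the members.

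Among the members, the cytochrome b probe AJ624584 had the highest ratio of stage 3 over stage 2. It gave 3.26, 3.15, 3.02 and 2.85 on the 4 arrays (mean 3.07 ± 0.17, SD), an 8.39-fold difference. The second cytochrome b probe, AJ624838, lay lower, between 2.03 and 2.54 (mean 2.27, 4.81-fold), so the rank is that of a probe and not of the gene. COI gave 3.14, 2.84, 2.62 and 2.82 (mean 2.86 ± 0.21), a 7.24-fold difference. ND5 gave 2.04, 3.12, 2.41 and 2.51 (mean 2.52 ± 0.45), a 5.74-fold difference. The 3 member probes of named genes thus lay close to each other in this comparison, and the ranges of their arrays overlapped.

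Among the AY484747 clones the array values at stage 3 over stage 2 ran from 0.41 to 3.09, and the clone means from 1.21 to 2.86. Myt01-019B10, the clone with the highest fitted level at stage 3 relative to stage 1, gave 2.91, 2.86, 2.71 and 2.61. Myt01-019A05, the clone in the middle of that order, gave 0.70, 1.84, 1.33 and 1.31. Myt01-019B03 gave 3.09, 2.85, 2.77 and 2.72. The order of the clones over stage 1 therefore differed from their order over stage 2, since Myt01-019B03 had the lowest fitted level of all members at stage 3 relative to stage 1 (0.22, SE 0.21) but one of the highest relative to stage 2.

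**Figure D1:**
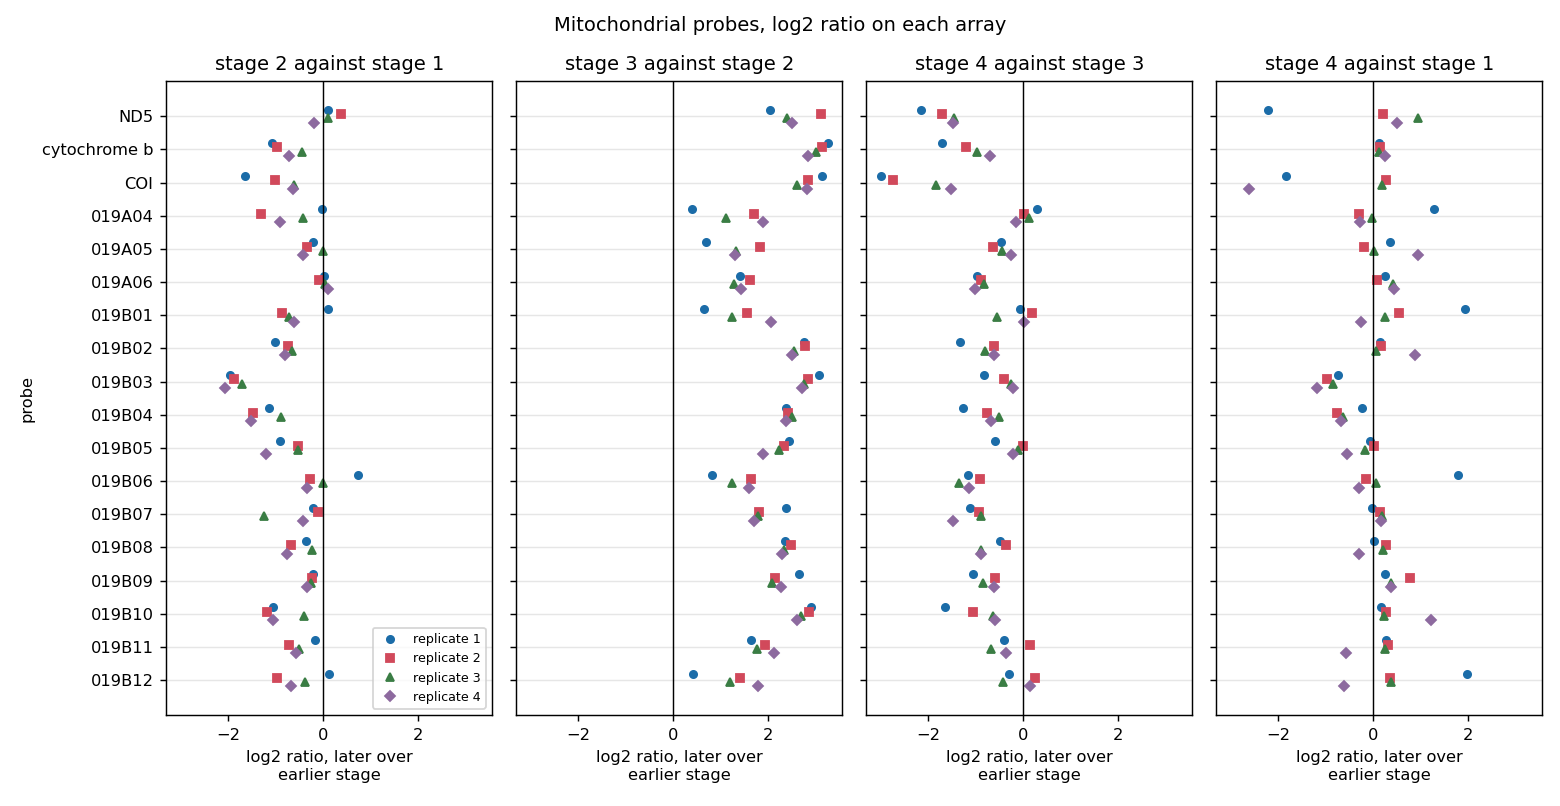
Log2 ratio of the later over the earlier stage (x axis) for each of the 18 mitochondrial probes (rows) in the 4 comparisons (panels), with 1 symbol per array. All 72 values of stage 3 against stage 2 lie above 0, while those of stage 4 against stage 1 lie on both sides of 0 and range between -2.61 and 1.98 (after median centring 64 of those 72 are above 0).

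Levels at stage 2 were mostly below those at stage 1, but this direction depended on the normalization. After loess, 62 of 72 member values were below 0, 13 members were below 0 on all 4 arrays (20.4% of all probes were), and the median of the member means was -0.51. After median centring of each array in place of loess, 39 of 72 values were below 0 and the median was 0.07. The 2 arrays with stage 2 in Cy5 had a median of -0.75 and those with stage 2 in Cy3 one of -0.32. Cytochrome b had -1.07, -0.97, -0.44 and -0.72 at stage 2 over stage 1, and COI -1.63, -1.0, -0.60 and -0.63. ND5 had 0.12, 0.39, 0.12 and -0.18, so that it lay close to 0 and its array values did not overlap with those of the other named genes. The lowest clone was Myt01-019B03, with -1.96, -1.88, -1.71 and -2.07, and the highest was Myt01-019B06, with 0.74, -0.26, 0.01 and -0.33. The egg envelope probe AJ625872 was also below 0 on the 4 arrays (between -2.34 and -0.85), and so was AJ625914 (between -0.85 and -0.05), and their part in the mitochondrial values was not tested.

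At spawning the levels were below those of the ripe stage. Of 72 values of stage 4 over stage 3, 63 were below 0, 13 members were below 0 on all 4 arrays (16.1% of all probes were), and the median of the member means was -0.78, or 0.581-fold. After median centring 57 values were below 0 with a median of -0.36, and after print-tip loess 56 with a median of -0.37. COI had the lowest mean of the members, with -2.99, -2.73, -1.83 and -1.51 on the 4 arrays (0.208-fold). ND5 had -2.15, -1.71, -1.45 and -1.47 (0.31-fold), and cytochrome b -1.71, -1.19, -0.96 and -0.69 (0.454-fold). The AY484747 clones lay higher, with means between -1.13 and 0.08, and Myt01-019A04 (0.30, 0.03, 0.12 and -0.15) was on both sides of 0. Unlike the mitochondrial probes, the egg envelope probe AJ625914 was above 0 on all 4 arrays of stage 4 against stage 3 (between 0.81 and 1.97), and AJ625872 averaged 0.24 ± 0.27.

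On the direct arrays of stages 4 and 1 the direction depended on the normalization. After loess the values lay on both sides of 0, with a median of 0.17, 47 values above and 25 below 0, and 5 members above 0 and 2 below 0 on all 4 arrays (13.8% and 22.5% of all probes were). After median centring, 64 of 72 values were above 0 with a median of 1.20, and after plain background subtraction 56 were, with a median of 0.53. In the authors' ratios 43 were above 0 (median 0.05), after print-tip loess 44 (median 0.07) and without background correction 48 (median 0.15). For the single members the values are those after loess. Cytochrome b was at 0.12, 0.14, 0.12 and 0.26. ND5 gave -2.21 on replicate 1 but 0.21, 0.95 and 0.50 on the others. COI gave -1.83 and -2.61 on replicates 1 and 4 but 0.27 and 0.19 on replicates 2 and 3. The members scattered more on replicates 1 and 4, where the stage 1 sample was labeled with Cy3 (SD between members 1.11 and 0.89), than on replicates 2 and 3, where it was labeled with Cy5 (0.424 and 0.392). Without replicate 1 of this comparison, the fitted level of ND5 at stage 4 relative to stage 1 was 0.68, against 0.14 with all arrays, and without replicate 4 that of COI was -0.43, against -0.84. Of the egg envelope probes, AJ625872 was below 0 on all 4 arrays (between -2.31 and -0.71), and AJ625914 lay between -0.05 and 0.41. After median centring they lay between -1.41 and -0.46 and between 0.45 and 1.68.

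A single fit over all 16 arrays combined the direct and the indirect routes between stages. In it stage 3 was the highest of the 4 fitted levels in 18 of 18 members and stage 2 the lowest in 17, the other being Myt01-019B06, for which stage 1 was lowest. After median centring stage 3 was highest in 17 members and stage 2 lowest in 10, and after print-tip loess in 14 and 17. The coefficients behind these orders are those that chose the members, so the orders are a description. Their share over all probes was not counted. The order of stages, low to high, was 2, 1, 4, 3 in 14 members and 2, 4, 1, 3 in 3 members (COI, Myt01-019B03 and Myt01-019B04). Relative to stage 1, ND5 was at -0.16, 2.10 and 0.14 at stages 2, 3 and 4 (SE 0.32, 0.36 and 0.32), so that stages 1, 2 and 4 lay within 2 SE of their neighbors and only stage 3 stood clear. Cytochrome b was at -1.04, 1.78 and 0.40 (SE 0.16, 0.18 and 0.16), and each step in its order exceeded 2 SE. COI was at -1.12, 1.58 and -0.84 (SE 0.33, 0.38 and 0.33), and its stages 2 and 4 differed by 0.28 (SE 0.38), within 2 SE. Over all members, the lowest neighboring stages lay within 2 SE of each other in 5 of 18, the middle ones in 6 and the highest in 4 (Myt01-019A04, Myt01-019B01, Myt01-019B03 and Myt01-019B12).

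With a probe counted when its Benjamini-Hochberg adjusted p from limma was under 0.05 and its log odds of change B above 0, 17 of 18 members were counted as higher at stage 3 than at stage 2 (6.46% of all probes were), 11 as higher at stage 3 than at stage 1 (3.8%) and 2 as higher at stage 4 than at stage 1 (0.99%). As lower at stage 2 than at stage 1, 7 of 18 were counted (4.48% of all probes were), and 11 as lower at stage 4 than at stage 3 (2.66%). These contrasts chose the members, and nothing is read from the counts.

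**Figure D2:**
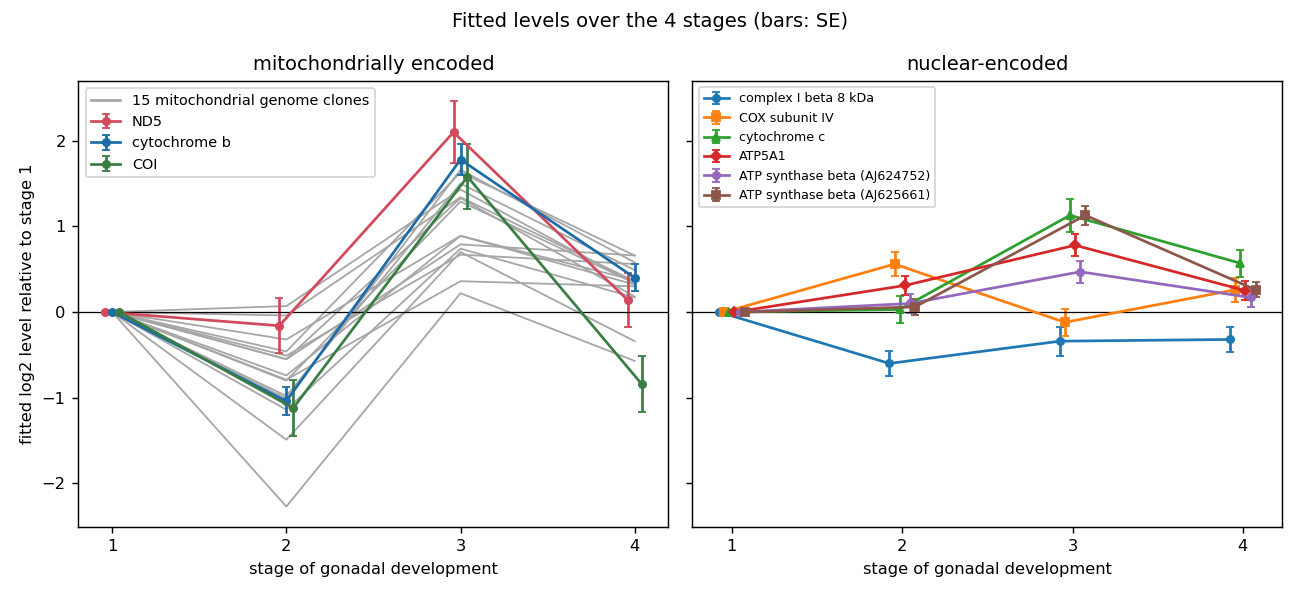
Fitted log2 level relative to stage 1 (y axis) at each stage of gonadal development (x axis), for the mitochondrially encoded probes (left) and for 6 nuclear-encoded respiratory chain and ATP synthase probes (right); bars are SE. ND5, cytochrome b and COI are highest at stage 3 (2.10, 1.78 and 1.58). The AY484747 clones range between 0.22 and 1.66 there, and the nuclear-encoded probes between -0.34 and 1.13. The values below 0 at stage 2 depend on the normalization, the median of the member means on the direct arrays being 0.07 after median centring.

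Nuclear-encoded proteins of the respiratory chain and the ATP synthase were represented by 6 probes. The study had likewise listed them as changed on these arrays, so that their counts are not independent evidence. Only AJ516388 (complex I) and AJ624079 (complex IV) are subunits of a complex to which a named member belongs. The others stand for cytochrome c and for subunits of the ATP synthase. The medians of the mitochondrial probes include the AY484747 clones, whose genes are not known here. At stage 3 against stage 2, 2 were counted as higher and 1 as lower, and their median was 0.42, against 1.98 for the mitochondrial probes and 0.02 for all probes. After median centring the nuclear-encoded median was 0.03, against 1.81 for the mitochondrial probes, and 1 was counted as lower and none as higher by limma (at an unadjusted p under 0.05, 2 were higher and 1 was lower). Cytochrome c (AJ624894), the mobile carrier between complexes III and IV, gave 0.99, 1.64, 1.11 and 1.56, and 1 of 2 probes for the catalytic ATP synthase beta subunit (AJ625661) gave 0.82, 1.52, 1.00 and 1.13. The other beta subunit probe (AJ624752) gave 0.63, 0.59, 0.27 and 0.39, and the ATP synthase alpha subunit (AJ625646) 0.34, 0.67, 0.59 and 0.43. All 4 were above 0 on every array, below the range of the 3 named mitochondrial genes. Their array values overlapped with those of the AY484747 clones, which ran from 0.41 to 3.09. The mean of cytochrome c (1.32) lay within the range of the clone means (1.21 to 2.86). Those of AJ625661 (1.12), AJ624752 (0.47) and AJ625646 (0.51) lay below it. After median centring AJ625661 alone of the 4 was above 0 on every array, while AJ624752 lay between -0.61 and 0.55 and AJ625646 between -0.64 and 0.65.

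The partner subunits of complex IV lay on opposite sides of 0. COX subunit IV (AJ624079), a nuclear-encoded subunit, gave -0.83, -1.08, -0.84 and -0.77 at stage 3 over stage 2, while COI, encoded in the mitochondrion, was between 2.62 and 3.14 on the same arrays. At stage 2 over stage 1, COX subunit IV was above 0 on all 4 arrays (0.67, 0.41, 0.18 and 0.17), where COI was below 0 on all 4. For complex I, the nuclear-encoded beta subunit AJ516388 gave 0.40, 0.33, 0.57 and 0.22 at stage 3 over stage 2, against 2.04 to 3.12 for ND5. The difference between the mitochondrial and nuclear-encoded probes was not tested.

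At stage 2 against stage 1 none of the 6 nuclear-encoded probes was counted in either direction by limma (at an unadjusted p under 0.05, 2 were higher and 1 was lower), and their median was 0.08, against -0.76 for the mitochondrial probes. After median centring 1 was counted as higher, and the medians were 0.79 and -0.06. At stage 3 against stage 1, 3 were counted as higher, with a median of 0.63, against 1.31 (0.81, against 1.80, after median centring, with 1 counted as higher). At stage 4 against stage 3, 2 were counted as lower, with a median of -0.42, against -0.98 for the mitochondrial probes (0.20, against -0.46, after median centring). Of 3 inner membrane transport proteins, nicotinamide nucleotide transhydrogenase (AJ624576), which couples the proton gradient to NADPH formation, gave 1.33, 2.02, 1.79 and 0.72 at stage 3 over stage 2. The phosphate carrier AJ624083 (between -0.29 and 0.07) and the adenylate translocator AJ624842 (between -0.13 and 0.20), which bring phosphate and ADP to the ATP synthase, lay near 0.

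The loop offers a measure that the choice of members did not use: the sum of the 3 steps from stage 1 to stage 4 minus what the direct arrays of stages 4 and 1 gave, which is 0 up to noise where both routes agree. The study's own selection did use the residual spread, of which this mismatch is a part. The mismatch was above 0 in 17 of 18 members, with a median of 0.67 (range -0.11 to 1.46, median SE 0.31), against 0.11 over all probes. In all, 7 of 18 members passed an adjusted p of 0.05 from limma, all above 0, whereas 13.5% of all probes passed in either direction and 7.76% above 0. With limma, none passed after median centring (0 at an unadjusted p under 0.05) or after plain background subtraction (3 at an unadjusted p under 0.05), and plain subtraction gave a median of -0.01 with 9 members above 0. After median centring the median stayed above 0, at 0.46, with 16 members above 0. The authors' ratios gave 9 members that passed and a median of 1.12, and the arrays without background correction 10 members and a median of 1.10. Of all probes, 15.2% passed in the authors' ratios and 12.8% without background correction, in either direction. After median centring 9.84% of all probes passed, and after plain background subtraction 9.06%.

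The mismatch was not particular to the 18 members. The egg envelope probes had larger ones, 2.12 for AJ625872 (SE 0.53, adjusted p = 0.0133 from limma) and 2.09 for AJ625914 (SE 0.35, adjusted p = 0.00116 from limma). After median centring they were 1.71 (adjusted p = 0.00924 from limma) and 1.48 (adjusted p = 0.183). Of the 5 described genes outside the members whose ratio pattern was most like theirs (AJ624838, AJ626386, AJ626467, AJ623779 and AJ624260), 4 also passed, all but AJ624838, with mismatches between 0.94 and 1.20 after loess, and none of the 5 did after median centring (adjusted p from limma between 0.596 and 0.965). These 5 were chosen for their likeness in the same ratios that give the mismatch. A mismatch like that of the members was thus largely built into the choice, and nothing is read from it. The part of egg-bearing cells in the mismatch of the mitochondrial probes was not tested.

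Myt01-019B03 had the largest mismatch, a sum of 0.53 against a direct change of -0.93 (mismatch 1.46, SE 0.22, adjusted p = 0.000416 from limma). Myt01-019B05 followed, with a sum of 1.22 against -0.19 (mismatch 1.41, SE 0.27, adjusted p = 0.00218 from limma). For cytochrome b the sum was 1.13 and the direct change 0.16 (mismatch 0.97, SE 0.27, adjusted p = 0.0254 from limma). For ND5 (1.08, SE 0.69, adjusted p = 0.363) and COI (0.62, SE 0.76, adjusted p = 0.66) the mismatch did not pass in limma, and their SEs were larger than that of cytochrome b. For stage 4 relative to stage 1 the median of the members was 0.73 along the 3 steps and 0.17 on the direct arrays. After median centring these medians were 1.37 and 1.20, and after plain background subtraction 0.43 and 0.53, so that the routes lay closer together.

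**Figure D3:**
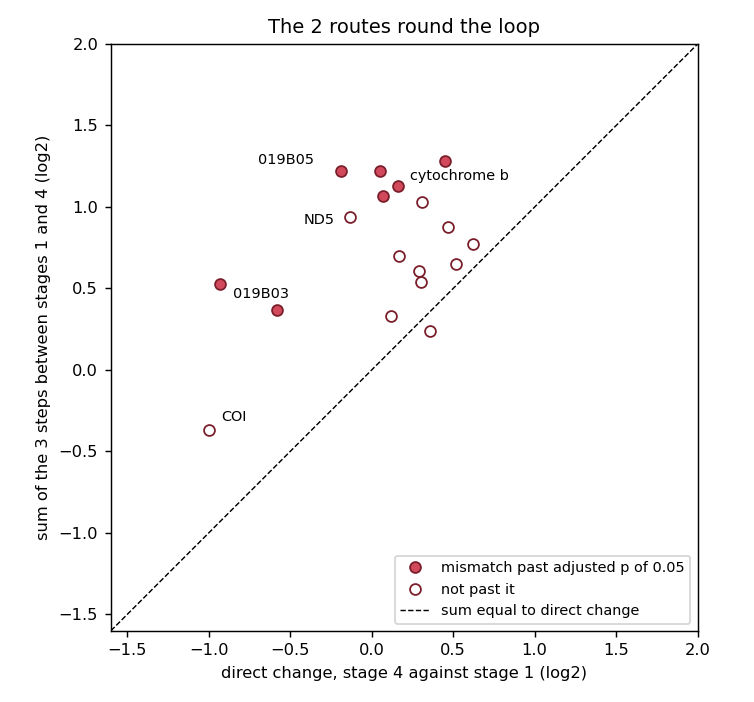
Sum of the log2 changes over the 3 steps between stages 1 and 4 (y axis) against the direct log2 change of stage 4 against stage 1 (x axis), 1 point per mitochondrial probe; filled points have a loop mismatch past an adjusted p of 0.05 from limma. Of the 18 points, 17 lie above the dashed line of equality, while the median mismatch was 0.46 after median centring and -0.01 after plain background subtraction.

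The members followed each other to different degrees. Over the 16 arrays, which share samples, the correlation between members ranged between 0.34 (Myt01-019B12 with ND5) and 0.99 (Myt01-019B10 with Myt01-019B02) over 153 pairs, with a median of 0.84. Cytochrome b was most like Myt01-019B02 (r = 0.99), COI most like Myt01-019B09 (r = 0.92), and ND5 most like Myt01-019A06 (r = 0.91). The pattern was shared beyond the members. Each member had an r of at least 0.71 with the mean of the others. Outside the members, 147 probes had a higher r than that with the mean of the members, up to 0.99. These are correlations of ratios along the loop and describe likeness only.

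The 4 brightest members, Myt01-019B01, Myt01-019B12, Myt01-019A04 and Myt01-019B06 (mean log2 intensity 11.20 to 12.29), went apart from the other 14 on some arrays. On replicate 1 of stage 4 against stage 1 they lay between 1.29 and 1.98, against -2.21 to 0.35 for the others, without overlap. On replicate 1 of stage 3 against stage 2 they lay between 0.41 and 0.83, against 0.70 to 3.26. On replicates 2, 3 and 4 of stage 3 against stage 2 their medians were 1.60, 1.22 and 1.85, against 2.46, 2.38 and 2.35 for the others. After median centring, the same probes lay between 2.46 and 2.73 on replicate 1 of stage 4 against stage 1 and the other 14 between -0.84 and 2.33, so that the gap shrank. Across the 18 members, brightness and the mean change had an r of -0.36 at stage 3 against stage 2 and of 0.40 at stage 4 against stage 3. The part of brightness in the lower ratios of these probes was not tested beyond these values, and the grouping was chosen after the values were seen.

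**Figure D4:**
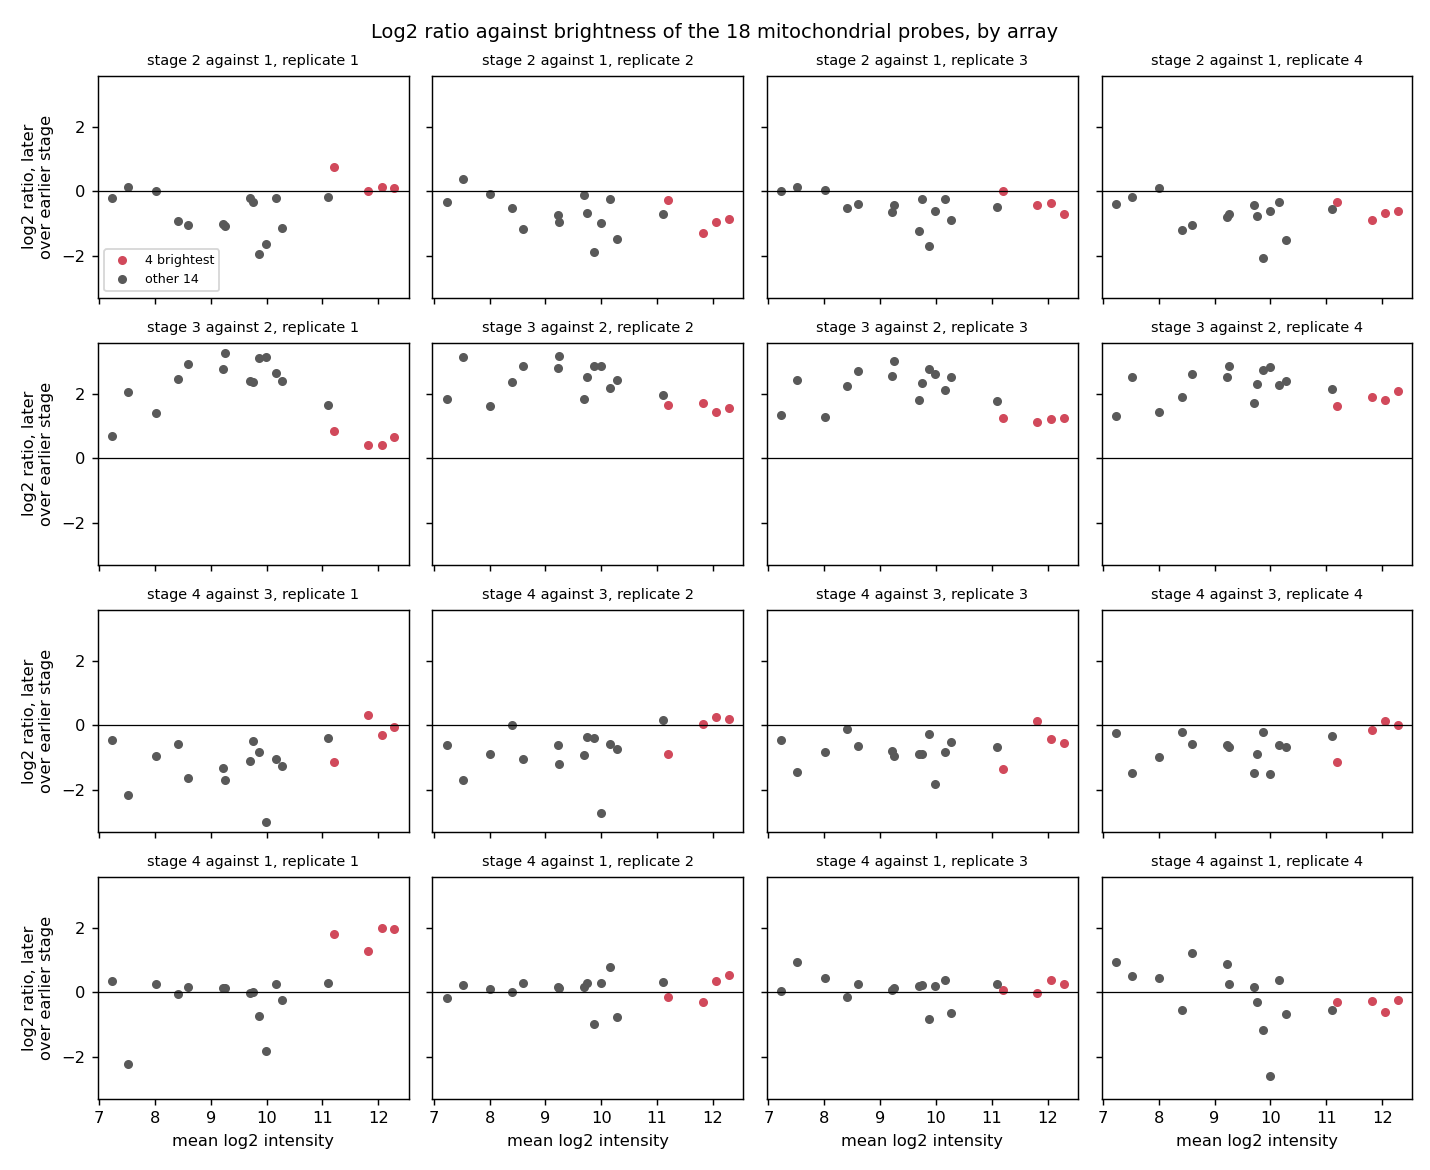
Log2 ratio of the later over the earlier stage (y axis) against the mean log2 intensity (x axis) of the 18 mitochondrial probes on each of the 16 arrays, with the 4 brightest probes in red. On replicate 1 of stage 4 against stage 1 the 4 brightest lie between 1.29 and 1.98, above the other 14, and on replicate 1 of stage 3 against stage 2 between 0.41 and 0.83.

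The AY484747 clones also shared their place in the clone collection. All 15 came from source plate 19 of 20, 12 of them filling row B and 3 lying in row A, and their spots fell in 4 of 16 print blocks. The 81 other clones of that plate had a median of 0.04 at stage 3 over stage 2, with 2 of them above the lowest mitochondrial mean of 1.21. These were Myt01-019C01 (2.23) and Myt01-019A03 (1.95), both in wells that adjoin AY484747 clones. The part of well position in the values was not tested. ND5, COI and cytochrome b came from other plates.

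Outside the members, the described gene with the ratio pattern most like their mean was a second cytochrome b probe (AJ624838, clone Myt01-011C05; r = 0.98 over 16 arrays). It gave 2.03, 2.40, 2.08 and 2.54 at stage 3 over stage 2 and -0.89, -1.10, -0.73 and -1.02 at stage 2 over stage 1. The cytochrome b probes had an r of 0.97 with each other, and their array values overlapped at stage 2 over stage 1 but not at stage 3 over stage 2. The next genes in this order were an actin binding protein (AJ626386), a collagen alpha-1 chain precursor (AJ626467), transcription factor rel 1 (AJ623779) and GDP dissociation inhibitor 2 (AJ624260), each with an r of 0.98. The collagen clone, Myt01-019A03, lies in the well beside the first of the AY484747 clones, and its ratio of stage 3 over stage 2 averaged 1.95 ± 0.04 (SD, n = 4). These genes come from the list that the study had selected on the same arrays.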

How the data were processed

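Per the labels and methods, total RNA from the mantle of single females was reverse transcribed from an oligodT primer with Cy3 or Cy5, hybridized in a loop to arrays of 3′ cDNA probes, scanned, and quantified with GenePix. The authors deposited intensity values per spot (mean foreground and median local background, not normalized) and log2 ratios from limma, with background subtracted with an offset and loess applied (version not given in the sources used here). Of 4560 spots, 3840 held 1920 probes in 2 copies, 608 were empty and 112 were for alignment.

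For the present values, normexp (offset 50) corrected the background, loess (weight 0 for control spots) normalized each array, and the 2 spots were averaged (R 4.3.3, limma 3.58.1). One limma fit over 16 arrays gave 3 stage coefficients, the other contrasts, and the loop mismatch, with p-values adjusted by Benjamini-Hochberg over all probes and 0.01 as the prior share of changed probes. The fit was tested on simulated data. Depth has no count here; signal over the 95th percentile of the empty spots stands in for it, and the number of arrays limits the precision. Arrays of one comparison varied more than duplicate spots did (ratio of variances at least 1.38). Named were the 3 genes with a name, the AY484747 clones at the top, middle and bottom of the fitted change at stage 3 against 1 and at the ends at stage 2 against 1, the second cytochrome b probe, 6 nuclear-encoded and 3 transport rows, and the 5 described genes most like the members' mean. Members and lists were chosen with earlier results of these data known. The sperm marker AJ516774 had no row in the list and is not analysed here. Identifiers come from the study's lists and were tied to clones by value. The study's quantitative PCR values were not used here.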

Additional observations from a re-analysis of the deposited data

Results flagged for a closer look

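Of 32 sets of 4 arrays tested, 3 held a value set apart from the rest by Dixon's criterion, which chance meets in about 1 of 20 groups. All were replicate 4 of stage 4 against stage 1, with stage 4 in Cy5. The median of the mitochondrial probes was -0.27 there and between 0.15 and 0.20 on the other arrays. Cytochrome b (AJ624584) was at 0.26 against 0.12 to 0.14. Myt01-019B10 was at 1.22 against 0.17 to 0.27. On this array the probes scattered in both directions (between -2.61 and 1.22).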

How the results depend on the processing

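The count of members higher at stage 3 than at stage 2 stayed between 14 and 18 when any array or replicate number was left out, and their fitted median between 1.42 and 2.27 under all 36 alternatives. Without the arrays of stage 3 against 2 themselves, 9 were counted. Leaving out single arrays or replicate numbers gave 5 to 8 members lower at stage 2 than 1, 7 to 12 higher at stage 3 than 1, 0 to 2 higher at stage 4 than 1, 9 to 11 lower at stage 4 than 3, and 2 to 7 with a loop mismatch. Median centring gave 1 lower at stage 2 than 1, 12 higher at stage 4 than 1, 2 lower at stage 4 than 3 and 0 mismatches, and turned the nuclear-encoded median at stage 4 against 3 to 0.20. Print-tip loess gave 7 higher at stage 3 than 1, 1 higher at stage 4 than 1 and 6 lower at stage 4 than 3. At stage 4 against 1 the count was 1 with the authors' ratios, without background correction, with plain subtraction, without dim probes (1766 kept) and with the disputed array as stage 4, and 0 after scaling between arrays. Plain subtraction gave 0 mismatches (median -0.01) and scaling 1. With spots kept separate, 11 were lower at stage 2 than 1 and 5 counted at stage 4 against 1; adjusted p alone gave 12 and 4. Dropping the direct arrays of stages 2 and 1, or of stages 3 and 2, left 6 higher at stage 3 than 1. Dropping those of stages 2 and 1, 3 and 2, or 4 and 3 gave 1 member lower and none higher at stage 4 than 1, and dropping those of stages 4 and 1 gave 5 higher. For these other settings the counts over all probes are not given here, and nothing is read from the member counts. The causes were not tested. For the 7 named members, 1171 of 1260 alternatives kept their side of the threshold, 58 lost the call and 31 gained it. No value counted in either fit changed direction, but uncounted values could. COI at stage 4 against 1 was -0.84 in the main fit and 0.29 after median centring. A value in a channel near the empty spots (stage 1, replicate 1 of stage 4 against 1) is limited by background.

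The replicate numbers were not taken as pairs, since the correlation of deviations between same-numbered arrays lay between -0.214 and 0.186, with 5 of 24 over 0.1. With the number as a block, 17 members were higher at stage 3 than 2, and the block changed no other count.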
